A study of Mus musculus with 46 samples.

Results

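Loss of Tfam in mouse liver was examined by comparing the 3 liver libraries labelled Tfam KO with the 6 liver libraries labelled control. They were picked by the genotype and description labels, and make up 9 of the 46 libraries of the series. By its title the study concerned retrograde signals, from mitochondria to the nucleus, in metabolic tissues, and it also sequenced islets, which are not analysed here. A further 4 livers were labelled Mfn DKO, a double knockout of the mitofusins Mfn1 and Mfn2. They entered the same fit and serve below as a second group with a mitochondrial defect. All livers are biological replicates per their titles, were frozen before RNA isolation, and carry the letters AAV, the usual abbreviation of adeno-associated virus, in their descriptions. What the virus carried, its promoter, what the control livers received, and the age and sex of the animals are not given in the sources used here.

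Tfam encodes a protein that binds and bends mitochondrial DNA. It packs that DNA and is needed to start its transcription, so that cells without it lose the RNAs for subunits of the respiratory chain and for the mitochondrial ribosome. Cells with faulty mitochondria are known to switch on the integrated stress response, in which the transcription factors ATF4, ATF5 and CHOP raise genes of amino acid synthesis and the secreted hormones FGF21 and GDF15. In the liver, hepatocytes carry most of the tissue's metabolism, and their mature state is held by factors such as HNF4A, CEBPA and the FOXA proteins.

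Total counts ran from 41961114 to 56894510 in the 9 libraries. Values below are CPM, counts scaled to library size, with sizes adjusted by the TMM method, whose factors were 0.86 to 0.93 in controls and 1.16, 1.43 and 1.04 in Tfam KO livers 1, 2 and 3. Alb, the gene of serum albumin and the defining product of hepatocytes, was the gene with the most counts in every library. It took 5.31% to 9.44% of all counts in controls, and 5.06%, 2.52% and 7.43% in KO livers 1, 2 and 3. Xist, the RNA of the inactive X chromosome, fell into separate levels: it was at 0.211 to 0.297 CPM in 3 controls and 0.705 CPM in KO liver 1, but at 380 to 615 CPM in the other 3 controls and at 781 and 788 CPM in KO livers 2 and 3. KO liver 2 stands apart from the other libraries, so counts of genes are given with and without it. In bulk tissue, fewer cells of a type and less RNA per cell cannot be told apart.

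Tfam itself (ENSMUSG00000003923, GRCm38 chromosome 10, 71225464 to 71238280, minus strand) ranged from 54.2 to 66.2 CPM in the controls, with a median of 57.9. It was at 15.0, 13.1 and 15.9 CPM in KO livers 1, 2 and 3, or 25.4%, 22.3% and 27.1% of the control mean. The 3 knockouts thus lay close together and far below every control, with a log2 fold change of -2.0 (SE 0.11, adjusted p = 1.4e-06 in edgeR's quasi-likelihood test with Benjamini-Hochberg adjustment over all genes). The Mfn DKO livers were at 50.4 to 59.9 CPM.

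RNAs made from mitochondrial DNA fell in all 3 KO livers, most of the protein transcripts to a smaller share of their control level than Tfam. Together these RNAs took 3.38% to 4.62% of all counts in controls and 0.158%, 0.551% and 0.203% in KO livers 1, 2 and 3. Of the 13 protein-coding mitochondrial transcripts, 11 passed the filter on low counts and all 11 were called lower, where called means an adjusted p of 0.05 or less. The background is 11.3% of the 17024 genes tested called lower and 18.1% called higher, 29.3% in all. Every count of called list members below is to be read beside these shares. The median log2 fold change of the 11 was -4.32, or -4.21 with 1 member that lay at the counting floor set at its bound, against 0.03 over all genes tested.

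mt-Co1, the catalytic subunit of cytochrome oxidase, ranged from 10750 to 15692 CPM in controls, with a median of 11814. In the KO livers it was at 359, 1225 and 479.8 CPM, a log2 fold change of -4.18 (SE 0.42, adjusted p = 0.00014). mt-Cytb, the cytochrome b of complex III, was at 7172 to 11497 CPM in controls and at 185, 572 and 193 CPM in the KO livers (log2 fold change -4.84). The lowest control was thus several times higher than the highest KO liver for both genes, and among the KO livers the second was the least depleted. mt-Nd6, a complex I subunit and the only protein read from the other strand of the circle, was at 1062 to 1838 CPM in controls and at 32.2, 126 and 31.1 CPM in the KO livers (log2 fold change -4.59, adjusted p = 0.00019).

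Over the 7 protein transcripts with at least 100 CPM in every control, the median level left was 2.16% of the control mean in KO liver 1, 8.28% in KO liver 2 and 2.13% in KO liver 3. In all 3 KO livers the best kept of the 7 was mt-Nd1, a complex I subunit that follows the ribosomal RNAs on the genome, at 3.68%, 14.7% and 5.07%. The lowest were mt-Nd4 at 1.92% in KO liver 1, mt-Cytb at 6.31% in KO liver 2 and mt-Nd6 at 2.04% in KO liver 3. The remaining transcripts counted here, such as mt-Co2 and mt-Co3, have near-identical copies in the nuclear genome and very low counts, and their values are uncertain.

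The ribosomal RNAs of mitochondria were depleted in a different order. mt-Rnr1, the small subunit RNA, kept 6.83%, 5.23% and 9.48% of the control mean in KO livers 1, 2 and 3 (log2 fold change -3.80, adjusted p = 2.5e-05). mt-Rnr2, the large subunit RNA, kept 11.4%, 8.16% and 26.2% (log2 fold change -2.71, adjusted p = 0.0009). KO liver 2 had thus kept the most of the protein transcripts and the least of the ribosomal RNAs. All 4 transfer RNAs that could be tested of 22 were also called lower. Leaving out KO liver 2 left all of these calls in place, at a median of -5.19 for the protein transcripts.

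**Figure D1:**
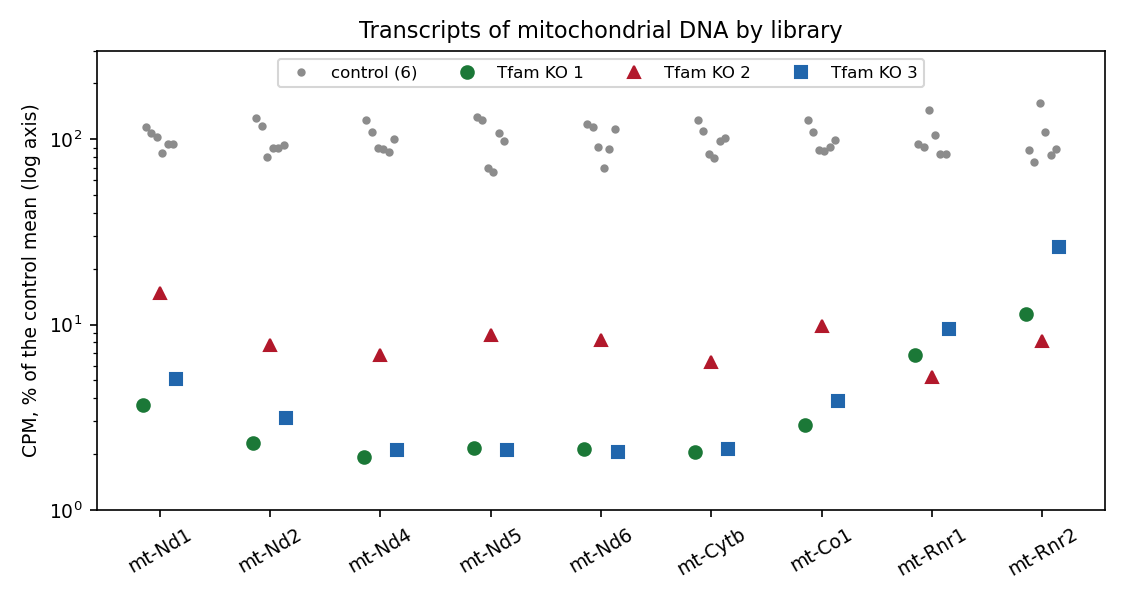
Level of 7 protein transcripts and 2 ribosomal RNAs of mitochondrial DNA in each liver, as a percentage of the mean of the 6 controls on a log axis; small grey points are controls and coloured marks the 3 Tfam KO livers. All KO values lie below 30% and all below every control; the red triangles of KO liver 2 are the highest for the protein transcripts (median 8.28%) and the lowest for the ribosomal RNAs.

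Few nuclear genes that work with these transcripts passed the test, and more fell when KO liver 3 was left out. Of 30 tested genes for replication, transcription and nucleotide supply of mitochondrial DNA, 4 were called higher and 3 lower (with KO liver 1, 2 or 3 left out, 3 and 2, 4 and 2, and 7 and 4). This was a share of 23.3% against the background of 29.3%, with a median log2 fold change of 0.02. Slc25a33, which carries pyrimidine nucleotides into mitochondria, rose from 10.1 to 25.1 CPM in controls to 43.8, 57.0 and 29.2 CPM in the KO livers (log2 fold change 1.42, adjusted p = 0.0035). Rrm2b, a p53-responsive ribonucleotide reductase subunit, rose from at most 4.15 CPM to 7.55, 11.1 and 4.92 CPM (log2 fold change 1.08). Tk2, the mitochondrial thymidine kinase, and Polg2, the accessory subunit of the mitochondrial DNA polymerase, fell, with log2 fold changes of -0.59 and -1.05. Among 77 nuclear subunits and assembly partners of oxidative phosphorylation, 4 were called higher and 4 lower (with KO liver 1, 2 or 3 left out, 2 and 0, 2 and 0, and 4 and 23), a share of 10.4% against the background of 29.3%. The complex I subunits Ndufa3 and Ndufb3 fell by 0.63 and 0.60 on the log2 scale, and both changes were lost without KO liver 1 or KO liver 2 (adjusted p between 0.052 and 0.067). Cox7a2l, which joins complexes III and IV, was higher by 0.76, and Cycs, the electron carrier cytochrome c, by 0.44, a call lost without KO liver 1 (adjusted p = 0.085). Of 77 mitochondrial ribosomal proteins, 10 were called higher and 6 lower, a share of 20.8% against the background of 29.3%. With KO liver 1, 2 or 3 left out, the counts were 6 and 3, 8 and 3, and 14 and 11. The median was 0.03. Mrpl54 rose to 41.1, 45.4 and 27.1 CPM from 14.4 to 20.7 CPM in controls.

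The 3 KO livers differed widely in how much of the nuclear transcriptome had changed. In the fit of all 3, 4992 genes were called, 3073 higher and 1919 lower. Counting for each liver the genes at least 2-fold beyond the nearest of the 6 controls, with 0.5 CPM added, gave 1178 genes (6.92%) in KO liver 1, 3009 (17.7%) in KO liver 2 and 119 (0.699%) in KO liver 3. The same count was 314 to 420 in the 4 Mfn DKO livers. KO liver 3 thus had the fewest such genes of all 7 targeted livers, although its Tfam and its mitochondrial protein transcripts were about as low as those of KO liver 1. A part of the genes changed in the same direction in all 3: of the 3073 genes called higher, 2814, 3026 and 1824 lay above every control in KO livers 1, 2 and 3, with median log2 differences of 0.88, 1.31 and 0.36. Of the 1919 genes called lower, 1826, 1882 and 1499 lay below every control. These shares describe genes that the same libraries selected. With the 2-fold limit, 583, 1529 and 68 of all genes tested were above every control in KO livers 1, 2 and 3. Those below every control numbered 595, 1480 and 51. Without that limit, the share of all genes beyond every control was not counted for single livers. Counts below of list members beyond every control in 1 liver thus have no matching share beside them. Over all genes tested, the groups did not overlap in 1818 genes that were higher (10.7%) and 1732 that were lower (10.2%) in the KO livers. KO liver 2 was the highest of the 3 in 2215 of the genes called higher and the lowest in 1380 of those called lower. Without KO liver 2 the count of called genes was 2504. Within the libraries with low Xist, which hold only KO liver 1 of the 3, 5894 genes were called, and within those with high Xist, which hold KO livers 2 and 3, edgeR called 0, with 3489 genes at an unadjusted p under 0.05.

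**Figure D2:**
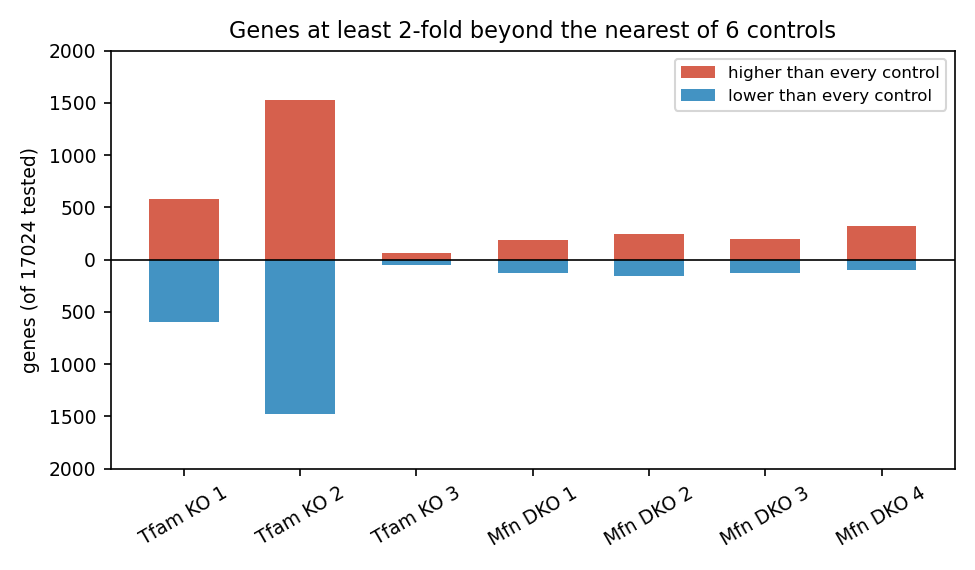
Number of genes in each Tfam KO and Mfn DKO liver that lay at least 2-fold above (red) or below (blue, drawn downward) the nearest of the 6 controls. Tfam KO liver 2 had 3009 such genes, KO liver 1 1178 and KO liver 3 119.

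Regulators and secreted products of the integrated stress response were higher in all 3 KO livers. Of 22 such genes 19 were called higher and none lower (with KO liver 1, 2 or 3 left out, 18, 14 and 19 higher, with 1 lower in the last), with a median log2 fold change of 2.13. The mean log2 CPM of the list exceeded the control mean by 2.66, 2.83 and 1.66 in KO livers 1, 2 and 3, while single controls lay within -0.37 and 0.30 of that mean. Many of these genes are known targets of ATF4, which binds with C/EBP proteins to a composite element with the core TGATGNAAN. The promoter stretches that follow show that element in 4 of the genes that rose, and for contrast the endoplasmic reticulum stress element, CCAAT and CCACG with 9 bases between them, in 2 genes that were not called higher. They are from RefSeq, build GRCm38.p6, read 5′ to 3′ on the gene's strand, with capitals marking the match.
Nupr1 (chr7:126625543-126625611, minus strand): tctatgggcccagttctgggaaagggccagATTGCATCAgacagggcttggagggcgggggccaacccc
Atf3 (chr1:191183406-191183474, minus strand): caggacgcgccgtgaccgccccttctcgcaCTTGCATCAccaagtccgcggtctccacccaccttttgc
Fgf21 (chr7:45615592-45615660, minus strand): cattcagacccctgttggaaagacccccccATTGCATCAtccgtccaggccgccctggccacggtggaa
Asns (chr6:7693210-7693262, minus strand): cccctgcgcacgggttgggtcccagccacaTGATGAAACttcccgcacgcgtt
Hspa5 (chr2:34771995-34772073, plus strand): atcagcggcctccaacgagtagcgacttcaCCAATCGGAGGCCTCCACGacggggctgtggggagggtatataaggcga
Syvn1 (chr19:6046502-6046575, plus strand): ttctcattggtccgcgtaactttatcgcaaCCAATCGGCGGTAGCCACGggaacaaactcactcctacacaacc

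In Nupr1, Atf3 and Fgf21 the match lies on the opposite strand and begins 111, 111 and 140 bases before the start site, and in Asns it begins 23 bases before it. Both motifs were searched on both strands from 250 bases before to 50 after each start site. The first was found in 4.50% of the 27025 genes with a promoter in the table, and in 13 of the 38 members of the 2 stress response lists that have one (34.2%). Of these 13, 11 were called higher in the KO livers, the others being Chac1 and Herpud1. Among the 25 members without a match, 19 were called higher and 1 was not tested. A match is a description of the letters and not a binding site.

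Trib3, a pseudokinase that feeds back on ATF4, was at 3.22 to 7.21 CPM in controls, with a median of 4.13, and at 227, 292 and 73.1 CPM in the KO livers. Its log2 fold change was 5.43 (SE 0.36, adjusted p = 9.7e-06). Nupr1, a small chromatin protein of stressed cells, rose from at most 2.69 CPM in controls to 357, 207 and 62.4 CPM (log2 fold change 7.12, adjusted p = 3.4e-05). For both genes the lowest KO liver, the third, was still far above the highest control. Atf3 reached 91.4, 67.6 and 14.5 CPM against 1.32 to 3.58 CPM in controls (log2 fold change 4.57). Ddit3, which encodes CHOP, reached 163, 139 and 41.6 CPM against 6.37 to 23.6 CPM (log2 fold change 3.15, adjusted p = 0.00084).

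The RNA of the response's central factor changed less than that of Trib3, Nupr1, Atf3 and Ddit3. Atf4 was at 86.9 to 149 CPM in controls and at 261, 252 and 129 CPM in the KO livers, so that the third lay inside the control range (log2 fold change 0.96, SE 0.21, adjusted p = 0.0057). Atf5, linked to the response to misfolded mitochondrial proteins, was at 97.4 to 268 CPM in controls and at 561, 269 and 483 CPM in the KO livers. Here KO liver 2, the most changed library, stood at the upper edge of the controls (log2 fold change 1.42, adjusted p = 0.0074). ATF4 is largely controlled at translation, which RNA levels do not show.

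The hormones of the response were ordered differently in the 3 livers. Fgf21, a liver hormone of fasting and stress, was at 0.502 to 5.14 CPM in controls, with a median of 1.66, and at 54.3, 13.1 and 55.5 CPM in the KO livers (log2 fold change 4.13, SE 0.60, adjusted p = 0.001). Gdf15, a stress hormone that acts on appetite centres, was at 0.951 to 8.98 CPM in controls and at 59.4, 95.8 and 31.3 CPM in the KO livers (log2 fold change 3.72, SE 0.52, adjusted p = 0.00087). No KO liver overlapped the controls for either gene, but Fgf21 was lowest in KO liver 2, where Gdf15 was highest. Scaled for transcript length, the authors' TPM values of Fgf21 were 178.5, 57.4 and 156.9 and those of Gdf15 were 100.3, 215.2 and 45.4 in the KO livers. Among the 3 members not called, Chac1, an enzyme of glutathione breakdown, was at 4.2 to 14.5 CPM in controls and at 7.78, 17.1 and 17.8 CPM in the KO livers (log2 fold change 0.68, adjusted p = 0.23). Herpud1, of endoplasmic reticulum protein turnover, had a log2 fold change of -0.71 (adjusted p = 0.12), and Cebpb, a C/EBP factor, was the third.

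Enzymes and carriers of amino acid supply and folate metabolism that the response induces were higher as well. Of 21 tested, 16 were called higher and 1, Cbs of cysteine synthesis, lower (with KO liver 1, 2 or 3 left out, 16 and 0, 14 and 0, and 17 and 2), with a median of 2.56. The list score exceeded the control mean by 2.66, 3.81 and 0.94 in KO livers 1, 2 and 3. Phgdh, the first enzyme of serine synthesis, was at 0.0994 to 0.495 CPM in controls and at 48.9, 104 and 2.26 CPM in the KO livers (log2 fold change 7.19, SE 0.82, adjusted p = 0.00028). Psat1, the next enzyme, was at 0.475 to 2.46 CPM in controls and at 125, 361 and 17.9 CPM in the KO livers (log2 fold change 7.19, adjusted p = 0.00013). Both are barely present in control liver, and all 3 KO livers lay above every control, the third by the smallest margin. Asns, asparagine synthetase, reached 50.7, 126 and 3.13 CPM against 0.265 to 2.19 CPM (log2 fold change 5.93). Mthfd2, a mitochondrial folate enzyme, reached 18.6, 68.2 and 4.09 CPM against at most 1.66 CPM (log2 fold change 4.63). Pycr1, of proline synthesis, rose by 3.10 on the log2 scale. Slc7a11, the cystine carrier, was at 0.0378 to 0.0862 CPM in controls and at 2.26, 135 and 0.134 CPM in the KO livers. Its rise was thus mostly that of KO liver 2, with a fitted log2 fold change of 9.62 (SE 1.5).

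**Figure D3:**
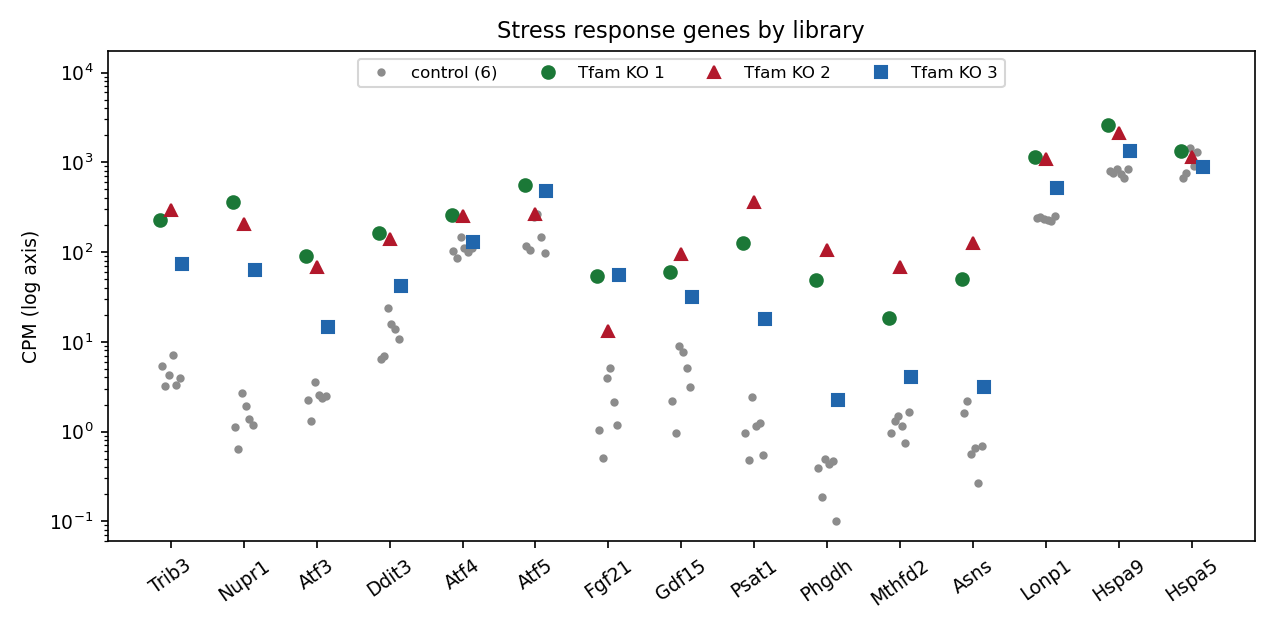
CPM of 15 stress genes in each liver on a log axis; grey points are the 6 controls and coloured marks the 3 Tfam KO livers. Trib3, Nupr1, Psat1 and Phgdh lie above every control in each KO liver, while Atf4 in KO liver 3 (129 CPM) and Hspa5 in the KO livers (878 to 1346 CPM) lie among the controls.

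Proteases and chaperones inside mitochondria rose in part. Of 18 genes 7 were called higher and none lower (with KO liver 1, 2 or 3 left out, 3, 6 and 10), with a median of 0.26. Lonp1, the matrix protease that degrades damaged proteins and unbound TFAM, was at 221 to 252 CPM in controls and at 1156, 1083 and 513 CPM in the KO livers (log2 fold change 1.95, SE 0.22, adjusted p = 0.00023). Hspa9, the matrix HSP70, was at 667 to 836 CPM in controls and at 2630, 2104 and 1327 CPM in the KO livers (log2 fold change 1.39, adjusted p = 0.0014). Both were beyond the controls in every KO liver. Pitrm1, a peptidase for presequences, rose by 1.15, and Hspd1, the chaperonin HSP60, by 0.63 on the log2 scale, the latter with an adjusted p of 0.054 without KO liver 1.

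No chaperone of the endoplasmic reticulum passed the test for a rise in the fit of all livers. None of 18 was called higher by edgeR, none rose at an unadjusted p under 0.05, and DESeq2's Wald test called none higher and 4 lower. The edgeR fit called 2 lower (with KO liver 1, 2 or 3 left out, 1, 0 and 8), with a median of -0.39. Hspa5, the chaperone BiP, was at 662 to 1440 CPM in controls and at 1346, 1143 and 878 CPM in the KO livers (log2 fold change 0.17, SE 0.25, adjusted p = 0.65). Within the libraries with low Xist, where KO liver 1 is the only KO liver, Hspa5 was called higher (log2 fold change 0.74, adjusted p = 0.014), 1 of the 18 genes called higher there beside 6 lower. Syvn1, a ligase of endoplasmic reticulum degradation, was at 57.8 to 132 CPM in controls and at 54.9, 35.1 and 44.9 CPM (log2 fold change -1.03, adjusted p = 0.011). The levels of Syvn1 in controls differed with Xist: against the 3 controls with low Xist, at 57.8 to 78.7 CPM, KO liver 1 was little lower, and the call was lost without KO liver 2 (adjusted p = 0.06). Pdia4, a folding enzyme, fell by 0.67 (adjusted p = 0.037), and this call was lost without KO liver 1 or KO liver 2 and without each of controls 3, 4 and 5. The stress element of the endoplasmic reticulum was found in 8 of the 16 members with a promoter in the table and in 0.137% of all genes, and none of the 8 was called higher.

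Hepatocyte transcription factors were lower. Of 22, 12 were called lower and none higher (with KO liver 1, 2 or 3 left out, 7, 5 and 17), with a median of -0.81. The list score was below the control mean by 0.73, 1.63 and 0.47 in KO livers 1, 2 and 3, all outside the range of the controls. Creb3l3, a factor of fasting and triglyceride metabolism, was at 337 to 419 CPM in controls and at 180.1, 192 and 203 CPM in the KO livers (log2 fold change -1.01, SE 0.12, adjusted p = 0.00032). Creb3l3 was an exception to the order of severity, since the 3 KO livers lay together. Foxa2, a pioneer factor of the hepatocyte lineage, was at 29.6 to 60.6 CPM in controls and at 16.2, 17.4 and 26.3 CPM (log2 fold change -1.14, adjusted p = 0.0047). Foxa1, its partner, fell by 0.86, and Nr1h4, the bile acid receptor FXR, by 0.75 on the log2 scale, the latter with an adjusted p of 0.056 without KO liver 2. Cebpa was at 553 to 749 CPM in controls and at 373, 63.6 and 379 CPM in the KO livers (log2 fold change -1.25, SE 0.41, adjusted p = 0.039), a call lost when any control but the fifth was left out (adjusted p between 0.053 and 0.063). Hnf4a was at 749 to 1040 CPM in controls and at 825, 312 and 689 CPM (log2 fold change -0.55, SE 0.25, adjusted p = 0.12), so that KO liver 1 lay within the control range.

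Plasma proteins made by hepatocytes followed the same order of livers. Of 29, 6 were called lower and none higher (with KO liver 1, 2 or 3 left out, 1, 8 and 23 lower), with a median of -0.89. This was a share of 20.7% against the background of 29.3%. The list score was below the control mean by 0.93, 2.79 and 0.17 in KO livers 1, 2 and 3, while single controls lay between -0.015 and 0.023. Alb was at 58854 to 104525 CPM in controls and at 43469, 17648 and 71777 CPM in the KO livers, which left KO liver 3 within the control range (log2 fold change -0.89, SE 0.43, adjusted p = 0.14). Ttr, the thyroid hormone carrier, was at 6203 to 7556 CPM in controls and at 2504, 1316 and 4126 CPM (log2 fold change -1.35, adjusted p = 0.0066). Apoa1, the main protein of HDL, was at 9030 to 12014 CPM in controls and at 3532, 785 and 5627 CPM (log2 fold change -1.63, adjusted p = 0.019). Ttr and Apoa1 were below every control in all 3 KO livers, but the Apoa1 call was lost without KO liver 1 (adjusted p = 0.055). Apoc3, an inhibitor of triglyceride clearance, fell by 1.45 on the log2 scale, to 475, 159.6 and 1242 CPM from at least 1418 CPM in controls, and its call was lost without KO liver 1 (adjusted p = 0.10).

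Genes of the metabolic zones of the lobule were called lower in part, and the counts varied with the livers included. Of 18 genes high around the central vein, 7 were called lower and 1 higher (with KO liver 1, 2 or 3 left out, 3 and 1, 4 and 1, and 10 and 2), with a median of -0.87. Glul, the glutamine synthetase of the innermost hepatocytes, was at 1327 to 1905 CPM in controls and at 249, 330.0 and 1071 CPM in the KO livers (log2 fold change -1.47, SE 0.41, adjusted p = 0.019). Oat, the ornithine aminotransferase of the same cells, was at 637 to 807 CPM in controls and at 135, 124 and 436 CPM (log2 fold change -1.59, adjusted p = 0.006). Cyp2e1, a cytochrome P450 of ethanol metabolism, was at 7619 to 12038 CPM in controls and at 2787, 235 and 4796 CPM (log2 fold change -1.86, SE 0.63, adjusted p = 0.041). Of 16 genes high around the portal vein, 3 were called lower and 1 higher, 25% against the background of 29.3% (with KO liver 1, 2 or 3 left out, 0 and 1, 4 and 1, and 9 and 1), with a median of -0.78. Arg1, which releases urea, was at 1247 to 1700 CPM in controls and at 622, 301 and 1130 CPM in the KO livers (log2 fold change -1.15, adjusted p = 0.018). The Glul call was lost without KO liver 1 or KO liver 2, and that of Arg1 and Cyp2e1 without KO liver 1 (adjusted p between 0.067 and 0.10). The Cyp2e1 call was also lost without any 1 of the 6 controls (adjusted p between 0.0504 and 0.067).

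Genes that break down amino acids were lower, in numbers that varied with the livers included. The list score was below the control mean by 0.89, 2.19 and 0.34 in KO livers 1, 2 and 3, and so lowest in KO liver 2. Controls split with Xist, at 9.25 to 9.36 where it was low and 8.90 to 9.03 where it was high. KO liver 1, with low Xist, was at 8.24, and KO livers 2 and 3, with high Xist, were at 6.94 and 8.80. Of 30 genes of the urea cycle and amino acid breakdown, 18 were called lower and 1 higher, with a median of -0.97, and with KO liver 1, 2 or 3 left out, the lower calls numbered 4, 13 and 23. Tdo2, which opens tryptophan breakdown, was at 1430 to 2311 CPM in controls and at 711, 299.98 and 797 CPM in the KO livers (log2 fold change -1.66, SE 0.34, adjusted p = 0.0045). Hgd, of tyrosine breakdown, fell by 1.36, Ftcd, of histidine breakdown, by 0.73, and Nags, which makes the activator of the urea cycle, by 0.95 on the log2 scale. Asl, of the urea cycle, was at 633 to 1025 CPM in controls and at 381, 179 and 600 CPM in the KO livers (log2 fold change -1.10, adjusted p = 0.02). The Hgd and Asl calls were lost without KO liver 1 (adjusted p = 0.069 and 0.064). Cps1, its first enzyme, was not called (log2 fold change -0.53, adjusted p = 0.21).

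Fat metabolism moved in both directions. Of 28 genes of fatty acid oxidation and PPAR alpha, 4 were called higher and 9 lower (with KO liver 1, 2 or 3 left out, 5 and 7, 3 and 9, and 5 and 11). This was a share of 46.4% against the background of 29.3%. The list score minus the control mean was -0.40, 0.39 and -0.03 in KO livers 1, 2 and 3. Single controls lay between -0.42 and 0.38. Acot2, a mitochondrial thioesterase, was at 5.47 to 11.7 CPM in controls and at 102, 467 and 25.1 CPM in the KO livers (log2 fold change 4.54, SE 0.60, adjusted p = 0.00075). Pdk4, the kinase that shuts pyruvate dehydrogenase, was at 2.69 to 11.7 CPM in controls and at 38.5, 662 and 21.9 CPM (log2 fold change 5.27, SE 0.90, adjusted p = 0.0022). Cyp4a31, a fatty acid hydroxylase with close relatives in its family, rose by 3.48. Acaa2 and Cpt1a, enzymes of the pathway itself, were called lower. Acaa2, the last step of mitochondrial oxidation, was at 1348 to 1695 CPM in controls and at 594, 388 and 924 CPM (log2 fold change -1.31, adjusted p = 0.0025). Cpt1a, the carnitine transferase that admits fatty acids, was at 381 to 569 CPM in controls and at 333, 289.5 and 345 CPM (log2 fold change -0.65, adjusted p = 0.01).

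Of 26 genes of sterol and fatty acid synthesis, Srebf1, the master factor of fat synthesis, was called lower and Me1, a source of NADPH, higher (with KO liver 1, 2 or 3 left out, 0, 2 and 16 genes were lower). Both calls were lost without KO liver 1 (adjusted p = 0.083 and 0.051), and that of Me1 without KO liver 2 (adjusted p = 0.15) or control 1. Srebf1 was at 391 to 651 CPM in controls and at 148, 50.02 and 347 CPM in the KO livers (log2 fold change -1.5, adjusted p = 0.022). Fasn, fatty acid synthase, was at 271 to 653 CPM in controls and at 146, 48.9 and 388 CPM (log2 fold change -1.18, adjusted p = 0.085), which placed KO liver 3 inside the controls. Of 20 bile acid genes tested, 6 were called lower and 1 higher (with KO liver 1, 2 or 3 left out, 4, 8 and 11 lower), with a median of -1.16. This was a share of 35% against the background of 29.3%. Cyp27a1, of the alternative route of bile acid synthesis, was at 335 to 565 CPM in controls and at 131, 81.1 and 240.3 CPM (log2 fold change -1.59, adjusted p = 0.0029). The sterol exporter genes Abcg5 and Abcg8 fell by 1.06 and 1.26 on the log2 scale. Abcc4, an exporter on the blood side of the hepatocyte, rose to 97.3, 175 and 14.4 CPM from 1.85 to 12.4 CPM in controls (log2 fold change 4.49, adjusted p = 0.0014).

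Glucose genes split. Of 25, 5 were called higher and 6 lower, 44% against the background of 29.3% (with KO liver 1, 2 or 3 left out, 4 and 3, 2 and 1, and 6 and 11). Slc37a4, which brings glucose 6-phosphate to its phosphatase, was at 228 to 326 CPM in controls and at 103, 36.7 and 157 CPM in the KO livers (log2 fold change -1.45, adjusted p = 0.0071). Aldoa, the aldolase of muscle and immature liver, was at 77.9 to 114 CPM in controls and at 305, 677 and 105 CPM, with KO liver 3 among the controls (log2 fold change 2.01, adjusted p = 0.0026). Slc2a1, the glucose carrier GLUT1, rose by 1.13. Pfkp, a phosphofructokinase of platelets and growing cells, reached 72.7 CPM in KO liver 2 alone, and its call was lost without that liver (log2 fold change 0.62, adjusted p = 0.4). Among 15 enzymes of the citric acid cycle, 4 rose and 2 fell (with KO liver 1, 2 or 3 left out, 4 and 0, 2 and 0, and 4 and 4). Mdh2, malate dehydrogenase, rose to 480.3, 740.0 and 289.7 CPM from 193 to 241 CPM, and Cs, citrate synthase, by 0.84 on the log2 scale.

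**Figure D4:**
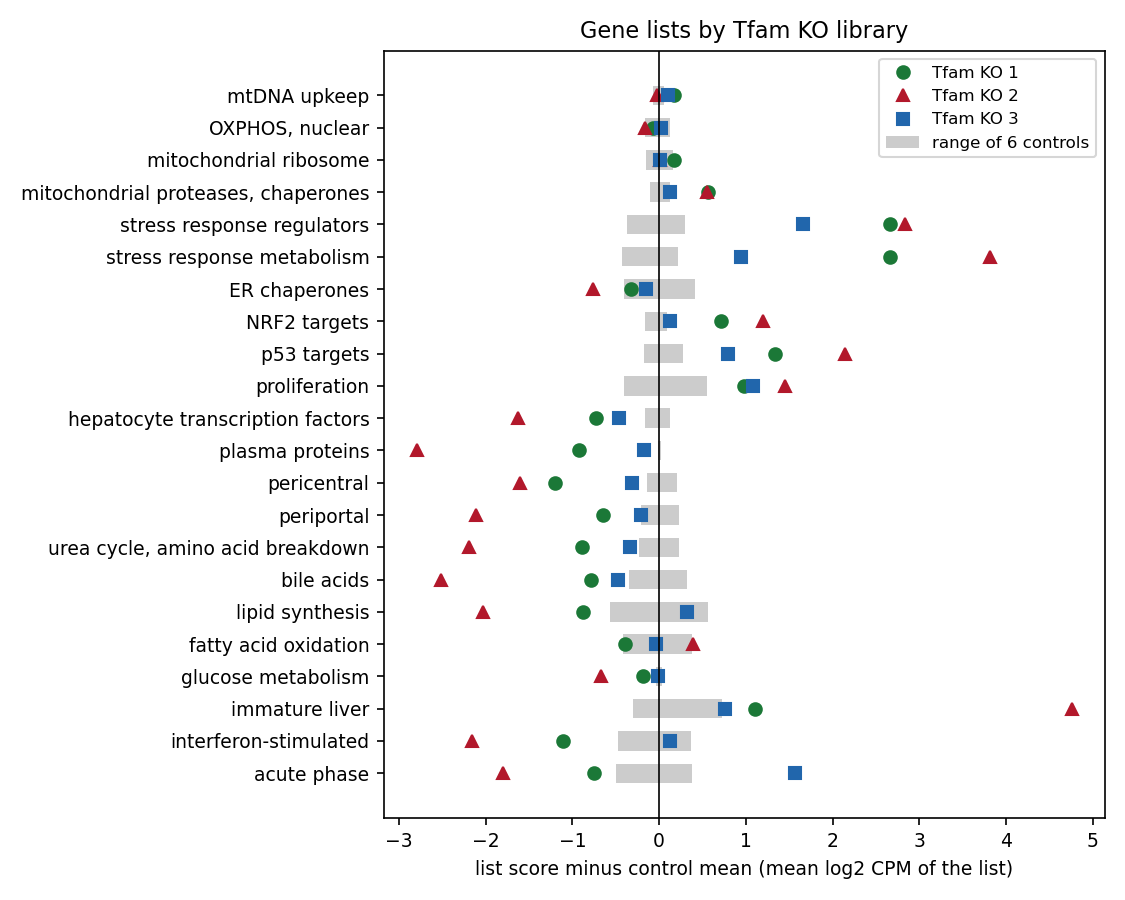
Mean log2 CPM of each gene list in the 3 Tfam KO livers minus the mean of the 6 controls; grey bars span the controls and each coloured mark is 1 liver. KO liver 2 is farthest from 0 for most lists, such as 4.76 for immature liver and -2.79 for plasma proteins, while acute phase genes lie at 1.57 in KO liver 3 and below 0 in KO livers 1 and 2.

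Genes of immature or regenerating liver were raised chiefly in KO liver 2. Of 15 tested genes 13 were called higher, but 3 without that liver, with medians of 3.65 and 0.51. Afp, alpha-fetoprotein (ENSMUSG00000054932, chromosome 5, 90490737 to 90508907, plus strand), was at 1.07 to 2.81 CPM in controls and at 5.31, 10783 and 4.45 CPM in KO livers 1, 2 and 3. All 3 KO livers lay above the controls, with levels 2.69, 5463 and 2.25 times the control mean, and the fitted log2 fold change was 10.83 (SE 1.80, adjusted p = 0.0018). Scaled for transcript length, the authors' TPM of Afp in KO liver 2 was 13323, beside 31357 for Alb in the same library. In controls the TPM of Alb was 53706 to 95733 and that of Afp at most 1.70. H19, a fetal long non-coding RNA, was at 0.211 to 7.09 CPM in controls and at 0.688, 144 and 9.41 CPM in the KO livers (log2 fold change 4.06, SE 1.24, adjusted p = 0.028). H19 differed with Xist among the controls, from at most 0.596 CPM where Xist was low to at least 3.95 CPM where it was high. Its call was lost without KO liver 2 (adjusted p = 0.73) and without control 1 or control 6 (0.052 and 0.053). Igdcc4, a membrane protein of the list, reached 26.3 CPM in KO liver 2, and Spink1, a trypsin inhibitor, rose in all 3 to 1.06, 3.65 and 0.402 CPM from at most 0.199 CPM.

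The growth hormone axis held a secreted inhibitor that was higher in every KO liver. Igfbp1, which binds IGF1, was at 15.6 to 77.0 CPM in controls and at 230.4, 1827 and 311 CPM in the KO livers (log2 fold change 3.90, SE 0.63, adjusted p = 0.0016). Ghr, the growth hormone receptor, fell by 0.99 (adjusted p = 0.036), a call lost without KO liver 1, KO liver 2 or any of controls 1, 2 and 6. Igf1 was at 579 to 752 CPM in controls and at 368, 75.2 and 601 CPM (log2 fold change -0.97, adjusted p = 0.1). Igfbp1 and Ghr thus passed the test while Igf1 did not, and KO liver 3 remained among the controls for Igf1.

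**Figure D5:**
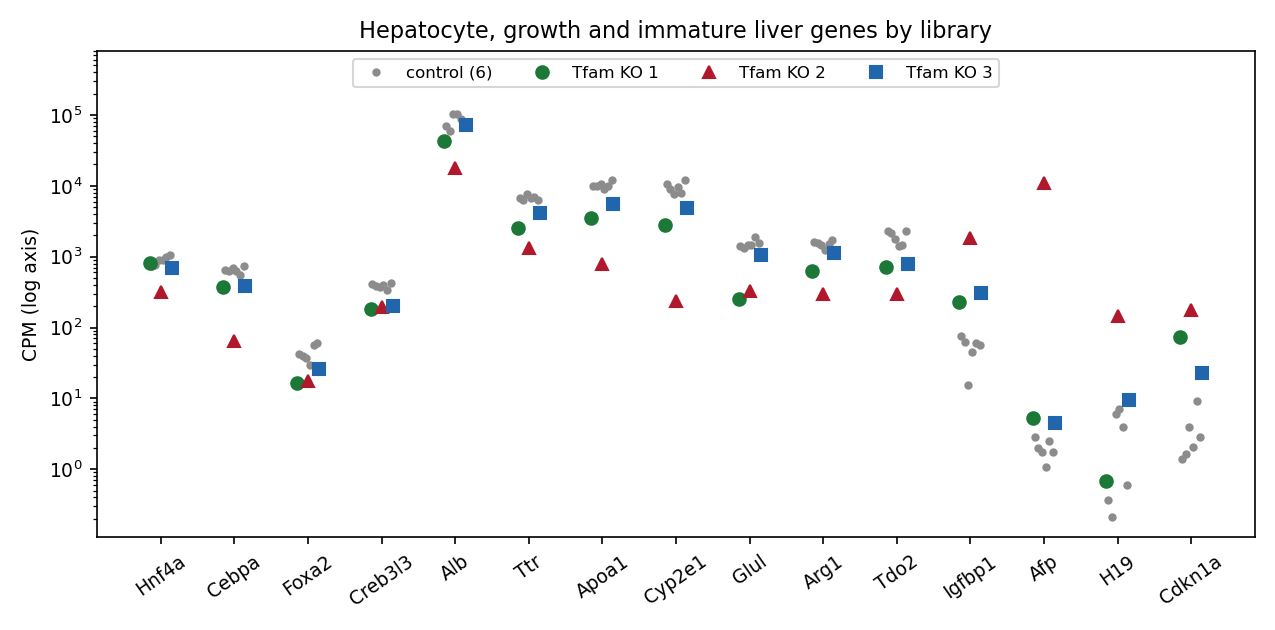
CPM of 15 hepatocyte, growth and immature liver genes in each liver on a log axis; grey points are the 6 controls and coloured marks the 3 Tfam KO livers. Afp stands at 10783 CPM in KO liver 2 and near 5 CPM in the others, while Creb3l3 is at 180.1 to 203 CPM in all 3.

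Targets of p53 were raised in all 3 livers. Of 18, 13 were called higher and none lower (with KO liver 1, 2 or 3 left out, 12, 9 and 13 higher, with 2 lower in the last), with a median of 1.41. This was a share of 72.2% against the background of 29.3%. Cdkn1a, the cell cycle inhibitor p21, was at 1.41 to 9.10 CPM in controls, with a median of 2.45, and at 74.3, 175 and 22.7 CPM in the KO livers (log2 fold change 4.69, SE 0.68, adjusted p = 0.00097). Eda2r, a death receptor of the TNF family, was at 0.456 to 1.36 CPM in controls and at 11.2, 22.6 and 3.02 CPM (log2 fold change 3.98, adjusted p = 0.00038). Gadd45a, a DNA damage gene that ATF4 also raises, was at 5.07 to 8.79 CPM in controls and at 22.4, 37.4 and 28.9 CPM (log2 fold change 2.03, SE 0.18, adjusted p = 6.9e-05). Tnfrsf10b, a TRAIL receptor, rose by 4.42. All 4 were above every control in each KO liver.

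Proliferation genes also rose, from very low levels. Of 16, 11 were called higher and none lower, 68.8% against the background of 29.3% (with KO liver 1, 2 or 3 left out, 7, 4 and 10), with a median of 1.35. Mki67, the marker of cycling cells, was at 1.81 to 3.06 CPM in controls and at 6.78, 7.69 and 6.42 CPM in the KO livers (log2 fold change 1.44, SE 0.29, adjusted p = 0.0039). Top2a, a topoisomerase of dividing cells, reached 5.31, 6.15 and 6.19 CPM against at most 3.53 CPM. Mcm2, of the replication helicase, reached 9.81, 12.0 and 10.1 CPM against at most 7.41 CPM. The 3 KO livers lay closer together here than for most lists, and the Mfn DKO livers were higher still for Mki67, at 8.13 to 22.7 CPM.

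Among 18 targets of NRF2, the antioxidant factor, 9 were called higher and 2 lower (with KO liver 1, 2 or 3 left out, 8 and 1, 6 and 1, and 11 and 3), with a median of 0.55. This was a share of 61.1% against the background of 29.3%. Hmox1, heme oxygenase, was at 18.2 to 28.3 CPM in controls and at 49.9, 92.1 and 48.6 CPM in the KO livers (log2 fold change 1.43, SE 0.22, adjusted p = 0.0012). Srxn1, which repairs peroxiredoxins, was at 32.1 to 36.6 CPM in controls and at 173, 238 and 35.9 CPM (log2 fold change 2.12, adjusted p = 0.0023). For Srxn1, KO liver 3 thus lay within the control range.

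Immune and acute phase genes separated KO liver 3 from the other two KO livers. Of 21 interferon-stimulated genes, 19 lay below every control in KO liver 1, 19 in KO liver 2 and 0 in KO liver 3. In the fit of all 3, Stat2 and Oasl1 were called lower, and none higher by edgeR, with 0 higher and 6 lower at an unadjusted p under 0.05 and the same counts of calls by DESeq2's Wald test. Without KO liver 1 or KO liver 2 no member was called by edgeR in either direction, and without KO liver 3 edgeR called 18 lower. Stat2, a transcription factor of interferon signalling, was at 62.7 to 97.7 CPM in controls and at 43.9, 18.3 and 66.0 CPM in the KO livers (log2 fold change -0.95, adjusted p = 0.033), a call also lost without each of controls 3, 4 and 5, as was that of Oasl1 without control 2 or control 6. Irf7, a factor that amplifies interferon, was at 45.5 to 102 CPM in controls and at 16.6, 3.58 and 49.6 CPM (log2 fold change -1.64, adjusted p = 0.051). The score of 19 acute phase genes was below the control mean by 0.75 and 1.79 in KO livers 1 and 2 and above it by 1.57 in KO liver 3. Single controls lay between -0.49 and 0.37 of that mean. Of these 19, Apcs, Lcn2, Mt1 and Mt2 were called higher and none lower (with KO liver 1, 2 or 3 left out, 4 and 0, 3 and 1, and 4 and 9). Their share of 21.1% was near the 18.1% of all genes tested that were called higher. Apcs, serum amyloid P, was at 41.5 to 176 CPM in controls and at 1215, 101 and 1190 CPM in the KO livers (log2 fold change 3.10, SE 0.60, adjusted p = 0.0035). KO liver 2 was therefore within the control range for a gene at more than 1000 CPM in the other KO livers. Lcn2, an iron-trapping defence protein, was at 2.56 to 35.9 CPM in controls and at 10.4, 231 and 129.9 CPM in the KO livers (log2 fold change 3.29, adjusted p = 0.019), a call lost without KO liver 2 (adjusted p = 0.11). Mt1 and Mt2, the metallothioneins, rose by 2.5 and 3.38.

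Most markers of other liver cells did not pass the test. Of 12 macrophage and Kupffer cell markers, Gpnmb and Marco were called higher and none lower, and their summed level was 449 to 829 CPM in controls and 444, 652 and 849 CPM in the KO livers. Over all 12, the median log2 difference from the control mean was -0.26, -1.07 and 0.62 in KO livers 1, 2 and 3. Of the 12, 6 lay below every control and 3 above in KO liver 1, 9 below and 2 above in KO liver 2, and 0 below and 9 above in KO liver 3. The share of all genes beyond every control in 1 liver was counted only with a 2-fold limit. The mean log2 CPM of the 12, which includes the large rise of Gpnmb, exceeded the control mean by 0.48, 0.18 and 0.95, and the Marco call was lost without KO liver 2 (adjusted p = 0.054). Without KO liver 3, 6 of the 12 were called lower. Of 9 tested markers of bile duct and progenitor epithelium, Cldn4, a tight junction protein, was called higher, with 10.8 CPM in KO liver 2 and at most 0.365 CPM in any control or other KO liver. Summed biliary markers were 51.4 to 86.3 CPM in controls and 39.8, 165 and 89.7 CPM in the KO livers. Of 10 endothelial markers Lyve1 was called higher, with 87.4 CPM in KO liver 2 against 19.2 and 11.3 CPM in the other KO livers and 7.74 to 14.5 CPM in controls. The Cldn4 and Lyve1 calls were lost without KO liver 2 (adjusted p = 0.8 and 0.27). Of 12 stellate cell and fibroblast markers, Col1a1, the main fibrillar collagen, rose to 14.3, 19 and 7.09 CPM from at most 6.62 CPM (log2 fold change 1.46, adjusted p = 0.0025). Loxl2, a collagen crosslinker, was also called higher, and Reln lower. Summed lymphocyte markers were 8.67 to 11.1 CPM in controls and 7.18, 1.79 and 11.0 CPM in the KO livers. Summed neutrophil markers were 1.78 to 9.40 CPM in controls and 2.23, 26.9 and 8.52 CPM. The part of these cells in the hepatocyte, immature liver and immune results was not tested.

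The gene with the largest rise was Areg, amphiregulin, a ligand of the EGF receptor (ENSMUSG00000029378, chromosome 5, 91139599 to 91148432, plus strand). It was at 0 to 0.0822 CPM in controls and at 202, 178 and 16.9 CPM in the KO livers (fitted log2 fold change 12.01, SE 0.89, adjusted p = 2.4e-05). Gpnmb, a lysosomal membrane glycoprotein of macrophages and stressed cells, was at 0 to 0.454 CPM in controls and at 54.1, 359 and 1.65 CPM (log2 fold change 9.28, SE 1.25, adjusted p = 0.00078). Bex2, a small adaptor protein, reached 29.4, 212 and 1.5 CPM against at most 0.228 CPM, and Coro6, an actin-binding coronin, 20.3, 117 and 1.12 CPM against at most 0.319 CPM. These genes shared near absence from control liver and a KO liver 3 that was the lowest of the 3 but above every control. Arnt2, a partner of PAS-domain factors, had at most 2 counts in any control. Against a floor of 3 counts per control library, its level was at least 15.3-fold higher in KO liver 1, at least 234-fold higher in KO liver 2 and at least 1.41-fold higher in KO liver 3. Vmn2r3, an annotated pheromone receptor of a family of near-identical genes, reached 293, 83.1 and 18.9 CPM against at most 2.19 CPM, and its assignment is uncertain.

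The largest falls outside mitochondrial DNA were in major urinary proteins, pheromone carriers that the liver secretes. Mup15, Mup17 and Mup19 fell by 6.52, 6.35 and 6.23 on the log2 scale (adjusted p = 0.0094, 0.0082 and 0.007). Their coding sequences are nearly identical, so the split of reads among them is uncertain, and their levels in controls differed with Xist. Mup17 was at 256 to 689 CPM in the 3 controls with low Xist and at 32.1 to 166 CPM in the 3 with high Xist. KO liver 1, with low Xist, was at 0.967 CPM, and KO livers 2 and 3, with high Xist, were at 1.01 and 8.56 CPM, so each lay below the controls of its own Xist level. Hectd2os, annotated antisense to Hectd2, fell to 0.164, 0.156 and 0.939 CPM from at least 5.22 CPM. Its reads may include those of the gene on the other strand, since the strand setting of the counting is not given in the sources used here.

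Some genes that varied little among controls spanned orders of magnitude among the 3 KO livers, which is given as a description. Inmt, an amine methyltransferase, was at 1335 to 2048 CPM in controls and at 377, 10.4 and 954 CPM in the KO livers. Akr1c6, a steroid dehydrogenase, was at 1079 to 1932 CPM in controls and at 385, 10.2 and 882 CPM. Cyp2d40, a cytochrome P450 with close relatives, was at 69.2 to 134 CPM in controls and at 9.90, 0.740 and 71.4 CPM. Lrit1, a leucine-rich membrane protein, was at 15.2 to 22.8 CPM in controls and at 1.34, 0 and 5.70 CPM. In all 4, KO liver 2 was the lowest and KO liver 3 the nearest to the controls.

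Against the Mfn DKO livers, 50 genes were called (0.294% of those tested), 18 higher (0.106%) and 32 lower (0.188%) in Tfam KO. At an unadjusted p under 0.05 there were 3480. Without KO liver 3 the count of called genes was 4204. The targeted mitofusins were among the genes that were higher: Mfn1 was at 99.6, 81.9 and 75.5 CPM in the Tfam KO livers and at 15.6 to 25.4 CPM in Mfn DKO (log2 fold change 2.09, adjusted p = 4e-05), and Mfn2 at 124, 122 and 134 CPM and at 32.3 to 45.1 CPM (log2 fold change 1.73). Neither was called against control (log2 fold changes 0.08 and -0.31). Of the 11 mitochondrial protein transcripts 9 were called lower than in Mfn DKO. mt-Cytb, at 4367 to 5308 CPM in the Mfn DKO livers, was lower by a log2 fold change of -3.93 (adjusted p = 0.00067), and mt-Nd5, mt-Nd4 and mt-Nd6 by -3.79, -3.62 and -3.52. Aldh1l2, the mitochondrial folate dehydrogenase, was at 13.2, 52.1 and 1.25 CPM in Tfam KO, 0.788 to 0.932 CPM in Mfn DKO and 0.0994 to 0.867 CPM in controls (log2 fold change against Mfn DKO 4.67, SE 0.87, adjusted p = 0.045). Dlg2, a scaffold protein, was higher by 4.66 (adjusted p = 0.013).

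Eno1b, an enolase copy, was at 57.9 to 70.4 CPM in Mfn DKO and at most 0.795 CPM in every Tfam KO and control liver (log2 fold change -7.10, adjusted p = 5e-06). It closely resembles Eno1, and its reads may be shared with that gene. Of the 21 enzymes and carriers of the stress response, 1, the Aldh1l2 given above, was called against Mfn DKO. Trib3 was at 73.2 to 94.2 CPM in Mfn DKO, near KO liver 3 and below KO livers 1 and 2 (log2 fold change 1.21, adjusted p = 0.12), and Fgf21 at 45.9 to 88.9 CPM (log2 fold change -0.69, adjusted p = 0.56). Atf5 was at 701 to 835 CPM in Mfn DKO, above all 3 Tfam KO livers.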

How the data were processed

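RNA was measured in 6 control, 4 Mfn DKO and 3 Tfam KO livers. Each deposited file lists 55487 genes with raw counts, CPM and TPM, per the file headers. The submitters' processing notes name STAR 2.6.1b, RSEM 1.3.1, featureCounts, DESeq2, FastQC and MultiQC and the build GRCm38, without roles. The deposited counts are whole numbers per gene and were used as they stood. The deposited TPM values, scaled by the authors for length and depth, were used only to set Afp beside Alb and Fgf21 beside Gdf15. Of the gene identifiers, 55141 occur in GENCODE M21, from which positions were taken.

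All 13 livers were fitted together, with 1 mean per group, by the quasi-likelihood test of edgeR 4.0.16 in R 4.3.3, with TMM scaling, the filterByExpr filter and Benjamini-Hochberg adjustment over the 17024 genes tested. Tests were two-sided. Standard errors were derived from the F statistic and the fold change. List scores average log2 CPM (prior count 2) over the genes of a list, library by library. The floor of a count of 0 is 3 counts, which covers counting error only. The procedure was tested on simulated data.

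The members and the 37 gene lists were chosen with earlier results of these data known. The named genes are Tfam, per list up to 4 genes ranked by adjusted p, a set of defining genes, and the 10 largest changes in each direction among genes that reach a mean of 5 CPM in 1 group and do not overlap. To these come the 8 genes with the widest range over the KO livers and a log2 range of at most 1 in controls, and the 5 largest changes in each direction against Mfn DKO. Not every gene admitted is given. Chac1, Herpud1, Cebpb and Cbs fall outside the rule and were named after their values were seen, as were genes that complete a count. Alternatives were DESeq2 1.42.0 size factors and its Wald test, no filter, at least 10 counts in every library, Xist as a covariate, mitochondrial genes left out, only the compared groups, and each library left out or each KO liver alone. The replicate number as a block was also tried: same-numbered control and KO livers correlated at 0.28, -0.03 and 0.06 over residual profiles, so the numbers were not taken as pairs.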

Additional observations from a re-analysis of the deposited data

Results flagged for a closer look

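Several values of single controls stood far from the other 5 controls, by Dixon's test at the 95% level, which by chance picks out about 1 in 20 groups. Here 11 of the 165 groups of 6 controls tested stood out. Control 6 had the lowest score for amino acid and folate enzymes of the stress response (1.85, others 2.26 to 2.49) and the highest CPM of Foxa1 (34.0), Vmn2r3 (2.19) and Eno1b (0.795). Control 5 had the highest Abcc4 (12.4 CPM), Cdkn1a (9.10 CPM) and Lcn2 (35.9 CPM), and control 4 the highest Igdcc4 (0.945 CPM). Control 1 had the highest Nags (71.4 CPM), and control 3 the highest mt-Rnr1 (2047 CPM) and the lowest Cpt1a (381 CPM).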

How the results depend on the processing

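The count of 4992 genes called against control was within 1.5 times of itself under DESeq2 size factors, no filter, at least 10 counts, the Wald test, Xist as a covariate and mitochondrial genes left out. Fitting only the compared groups gave 3228, KO liver 2 alone 8100, KO liver 3 alone 91, and only libraries with high Xist 0 in edgeR (3489 at an unadjusted p under 0.05). Leaving out 1 library gave 2504 (without KO liver 2) to 7330 (without KO liver 3). The count of 50 against Mfn DKO became 27 with at least 10 counts, 1087 with the Wald test, 30 without mitochondrial genes, 7 with only the compared groups, and 24 to 4204 with 1 library left out (4204 without KO liver 3). Where 1 KO liver is fitted alone, it is assumed to vary like the other groups. The causes of these moves were not tested, other than that some settings hold fewer libraries or genes.

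With the replicate block the counts were 395 and 6, and the medians of mitochondrial ribosomal proteins, macrophage and endothelial markers turned to -0.063, 0.046 and 0.097. No KO liver correlated best with the control of its own number, and the labels do not say that numbers pair.

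The alternatives were followed for 130 of the named genes, but not for others such as Cebpb, Cbs, Loxl2 and Reln. Those followed kept their direction wherever tested except Chac1 (-0.21 in KO liver 1 alone, -0.46 with low Xist), Hspa5 (-0.18 in KO liver 3 alone, -0.26 with high Xist), H19 (-2.17) and Lcn2 (-0.29) in KO liver 1 alone, and Mfn1 (-0.021 and -0.094 in KO livers 2 and 3 alone, -0.039 to 0.15 with 1 library left out). Calls were lost for 71 of the 130 with the replicate block and for 113 of 129 with high Xist. List medians that turned sign in KO liver 3 alone were oxidative phosphorylation (0.0051), mitochondrial ribosomal proteins (-0.0080), mitochondrial proteases (-0.064), lipid synthesis (0.19), interferon-stimulated genes (0.076), acute phase (0.83), and macrophage (0.58), endothelial (0.15) and lymphocyte (0.41) markers. In KO liver 2 alone they were upkeep of mitochondrial DNA (-0.011), mitochondrial ribosomal proteins (-0.023) and the citric acid cycle (0.023), and in KO liver 1 alone biliary (-0.53), neutrophil (-2.98) and red cell (0.045) markers. With high Xist the citric acid cycle (0.079), endothelial (0.0027) and red cell (0.076) medians turned, and with low Xist biliary (-0.35), lymphocyte (0.34) and neutrophil (-0.15) markers. Leaving out 1 library gave ranges across 0 for mitochondrial ribosomal proteins (-0.015 to 0.064), acute phase (-1.45 to 0.42), biliary (-0.0064 to 1.09), macrophage (-0.57 to 0.24), endothelial (-0.16 to 0.041), lymphocyte (-1.24 to 0.27) and neutrophil (-0.51 to 1.72) markers. For several lists, the scores of the controls did not overlap between low and high Xist. Among them were lipid synthesis, bile acids, amino acid breakdown, interferon-stimulated genes and neutrophil markers. Genes under a few CPM, such as those of proliferation, rest on few counts.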
